A study of Sus scrofa with 2 samples.

Results

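miR-452 and miR-224 are a pair of microRNAs (miRNAs) that lie within GABRE, the X-linked gene of the epsilon subunit of the GABA-A receptor. Their reads were taken from lists of small RNA tags of pig testis, by the miRNA name that the lists give each tag, with the species prefix, copy number and arm dropped. A tag is a distinct read sequence with its read count. They made up 2 of the 28643 tags of the 180-day library and 24 of the 82288 tags of the 30-day library. These tags carried 3 of the 1385 names with arm found in either list: miR-452, its star arm miR-452*, and miR-224. The star marks the arm that was rarer when it was named.

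Small RNA of whole testis was compared between sexually mature Junmu-1 boars, 180 days old, and sexually immature ones, 30 days old. Junmu-1 is a white Chinese pig breed, no treatment or genetic change is named in the labels, and the RNA of 3 boars was pooled into 1 library at each age. There is therefore no replicate spread, no test and no p-value: every interval covers counting error only and compares these libraries, not the ages. The miRNA-matched reads numbered 852209 in the 180-day library and 7525725 in the 30-day library. Levels are given as RPM, the usual unit of reads scaled to the size of a library, here to its miRNA-matched reads, and 3 reads, taken as the limit that a count of 0 allows, were 3.52 RPM in the 180-day library and 0.399 RPM in the 30-day library.

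A miRNA is cut from a hairpin precursor and guides the silencing of messenger RNAs, chiefly through its seed, bases 2 to 8 from the 5′ end. miRNAs within introns are often made from the transcript of their host gene, so miR-224 and miR-452 can arise from 1 primary transcript. In mouse ovarian granulosa cells miR-224 is induced by TGF-beta 1 and targets Smad4, and in mouse spermatogonial stem cells it has been reported to target Dmrt1. In mouse, miR-452 is known from neural crest cells. In the RefSeq annotation of Sscrofa11.1, both pig genes, MIR224 and MIR452, lie on chromosome X within the span of GABRE, and they are the 2 miRNA genes within it.

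The sequences that follow are the deposited entries to which the tags were matched, written as DNA with the seed in capitals. They show that the human and mouse entries of miR-452 begin at different bases and so have different seeds. The lists name no pig entry for miR-452, while the pig entry of miR-224 is 1 base longer than the dog entry.
miR-452, human entry: aACTGTTTgcagaggaaactga
miR-452, mouse entry: tGTTTGCAgaggaaactgagac
miR-224, pig entry: cAAGTCACtagtggttccgttta
miR-224, dog entry: cAAGTCACtagtggttccgttt
miR-452*, human entry: cTCATCTGcaaagaagtaagtg

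miR-452 was a scarce miRNA in both libraries, and its level was lower in the 180-day library. It had 4 reads in 2 tags in the 180-day library, against 101 reads in 20 tags in the 30-day library. This is 4.69 RPM (exact Poisson 95% interval 1.28 to 12.02) in the 180-day library and 13.4 RPM (10.9 to 16.3) in the 30-day library, and these intervals overlap. RPM in the 180-day library over RPM in the 30-day library, with the exact conditional 95% interval of the count ratio, gave a ratio of 0.350 (0.0935 to 0.923), so the level was 2.86-fold lower (1.08 to 10.7). At equal RPM, 11.4 reads would have been counted in the 180-day library. By number of reads miR-452 stood at place 442 among the 904 names of the 180-day list and at place 304 among the 1184 of the 30-day list.

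A name was called lower or higher where its ratio was 0.5 or less, or 2 or more, and the interval excluded 1. Over the 469 names with 20 or more reads in both libraries together, 57 (12.2%) were called lower and 138 (29.4%) higher in the 180-day library. This split depended on the scaling: higher names were 70.8% of those called here, 54.1% with TMM scaling, 53.5% with median-of-ratios scaling and 6.38% per read of the whole library. Of the 3 names of the pair, miR-452 alone had enough reads to be tested, and it was among those called lower. It met the minimum almost wholly through its 30-day reads. The median log2 ratio of the names tested was 0.22, against -1.52 for miR-452, and 51 names (10.9%) had a ratio below that of miR-452. Among the 115 names with 50 to 200 reads, a depth like that of miR-452, 20 were called lower (17.4%) and 41 higher.

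The call for miR-452 rested on 4 reads in the 180-day library and depended on which tags were counted. With perfect matches only, 3 reads against 50, the ratio was 0.567 (0.113 to 1.75) and the level no longer met the rule. With tags that held no mismatch it was 0.407 (0.109 to 1.08). The size of the difference also depended on the scaling. At the lowest whole-library totals that the tag numbers allow, miRNA-matched reads made up 7.08% of the 180-day library and 59.2% of the 30-day library. Per read of those totals miR-452 was 23.9-fold lower (9.05 to 89.4) in the 180-day library, but 396 of the 469 names were then called lower and 27 higher. In bulk tissue, fewer cells that make a miRNA and less of it per cell cannot be told apart.

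**Figure D1:**
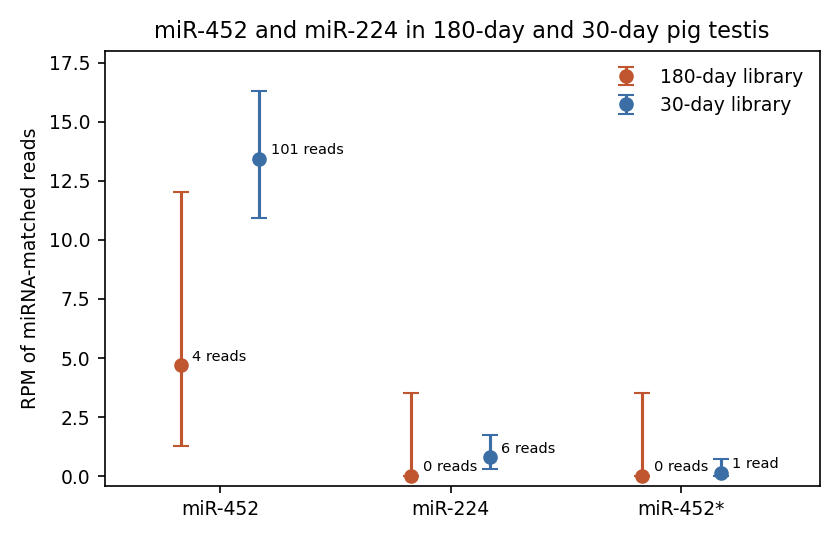
Level of each miRNA in RPM of miRNA-matched reads in the 180-day library (left point of each pair) and the 30-day library (right point), 1 library per age. Bars are exact Poisson 95% intervals, or reach up to the level of 3 reads where no read was counted; miR-452 lies at 4.69 RPM in the 180-day library and 13.4 RPM in the 30-day library.

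**Figure D2:**
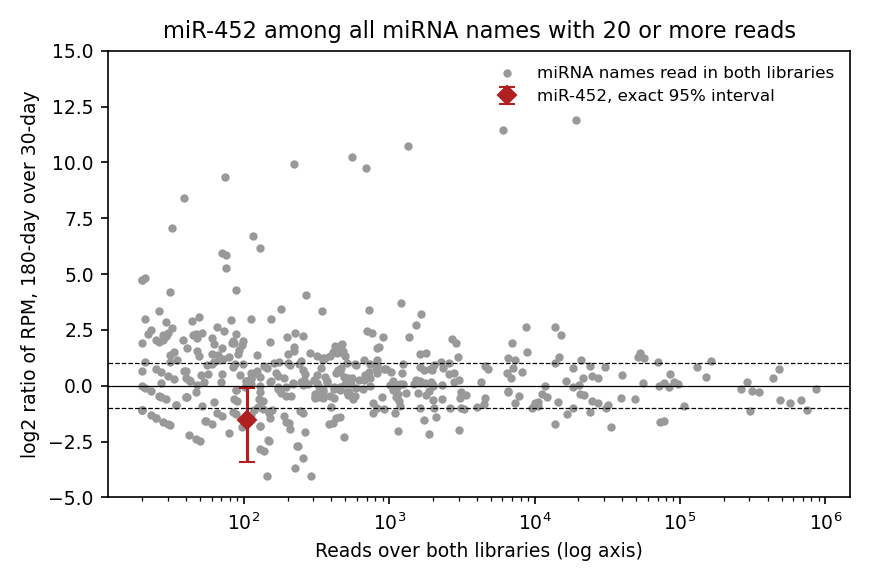
log2 ratio of the RPM of the 180-day library over that of the 30-day library, against the reads over both libraries on a log axis, for the names that had 20 or more reads together and a read in each library. Dashed lines mark ratios of 2 and 0.5; miR-452 lies at -1.52, with an exact 95% interval that ends just under 0.

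miR-224 was near the limit of detection. It had no read in the 180-day library and 6 reads in 3 tags in the 30-day library. The count of 0 allows up to 3.52 RPM in the 180-day library, and the level in the 30-day library was 0.797 RPM (0.293 to 1.74). The 30-day level was therefore below what the 180-day library could show, since equal RPM would have given 0.679 reads there, and no ratio is given. A lower level of miR-224 in the 180-day library was not detectable at this depth. A higher one was bounded only loosely, by an exact upper limit of 7.50 for the ratio.

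The reads of miR-224 had the seed of the pig entry. Their tags, with 3, 2 and 1 reads in the 30-day library, are shown because they are all the evidence for miR-224 in these lists.
miR-224, 3 reads: cAAGTCACtagtggttccgttt
miR-224, 2 reads: cAAGTCACtagtggttccgtttag
miR-224, 1 read: cAAGTCACtagtggttgcgtttag
The first was the dog entry itself, 1 base short of the pig entry. The others ran 1 base past the pig entry, with a g, and the last of them held 1 mismatch as well.

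miR-452* was represented by 1 read in the 30-day library and none in the 180-day library, which is 0.133 RPM (0.00336 to 0.740) in the 30-day library. Its tag fitted the human entry poorly, with 2 mismatches and 2 unmatched bases, and its own bases 2 to 8 were not those of the entry.
miR-452*, 1 read: cTCAACGGcaaagaagtgaagg
Both arms together had 102 reads in the 30-day library, of which the star arm held 0.980% (exact Clopper-Pearson 95% interval 0.0248 to 5.34%). In the 180-day library it held 0 of 4, with an exact upper limit of 60.2%. Counts this low do not show whether the arm shares differed between the libraries. No tag was named for the other arm of miR-224.

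The order of levels in the 30-day library was miR-452, then miR-224, then miR-452*. The intervals of miR-452 and miR-224 did not overlap, while those of miR-224 and miR-452* did. miR-452, both arms together, had 17 reads for each miR-224 read in the 30-day library (exact 95% interval 7.55 to 47.4). In the 180-day library it had 4 reads against none. The share of miR-224 in the reads of the pair was 0 of 4 in the 180-day library and 5.56% (2.07 to 11.7%) in the 30-day library, a gap that 4 reads cannot resolve. Reads of different miRNAs also differ in how well they are ligated and amplified, which was not measured here.

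The tags of miR-452 varied mainly at the 3′ end. The most read ones in the 30-day library are shown with their seed in capitals, followed by 3 that began further in.
miR-452, 50 reads: aACTGTTTgcagaggaaactga
miR-452, 11 reads: aACTGTTTgcagaggaaactgaa
miR-452, 10 reads: aACTGTTTgcagaggaaactgag
miR-452, later start, 2 reads: tGTTTGCAgaggaaactgaga
miR-452, later start, 1 read: cTGTTTGCagaggaaactgaga
miR-452, later start, 1 read: tGTTTGCAgaggaaactgagt
The first of these was also the leading tag of the 180-day library, with 3 reads. The fourth read there was the 20-nucleotide form, which had 6 reads in the 30-day library.
miR-452, 20 nucleotides: aACTGTTTgcagaggaaact

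The 5′ end of miR-452 was that of the human entry in nearly all reads. An alignment without gaps placed all 4 reads of the 180-day library at this start, and 95 of 101 reads in the 30-day library (94.1%, 87.5 to 97.8%). The later starts made up 3 reads at the mouse start, 3 bases further in, and 1 read that began 2 bases further in. The remaining 2 reads came from a tag that kept the first bases of the human entry. Its other bases lay 1 base out of step with the entry, so the alignment did not count these 2 reads at the human start. The human seed was intact in 4 of 4 reads of the 180-day library and 94 of 101 reads of the 30-day library. None of the other names in the lists had an entry with either seed of miR-452 or that of miR-224.

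The 3′ end matched the end of the human entry in 53 of 101 reads of the 30-day library (52.5%, 42.3 to 62.5%) and in 3 of 4 reads of the 180-day library. Shorter tags held 1 of 4 reads in the 180-day library and 14 of 101 reads (13.9%, 7.79 to 22.2%) in the 30-day library. Tags running past the end were seen in the 30-day library. In 19 of its 101 reads (18.8%, 11.7 to 27.8%) the added bases were those that follow in the mouse entry. In 15 reads (14.9%, 8.56 to 23.3%) they were other bases, and 11 of these 15 were the tag with 1 added a. The pig precursor was not used here, so whether an added base is encoded in the pig genome was not determined.

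**Figure D3:**
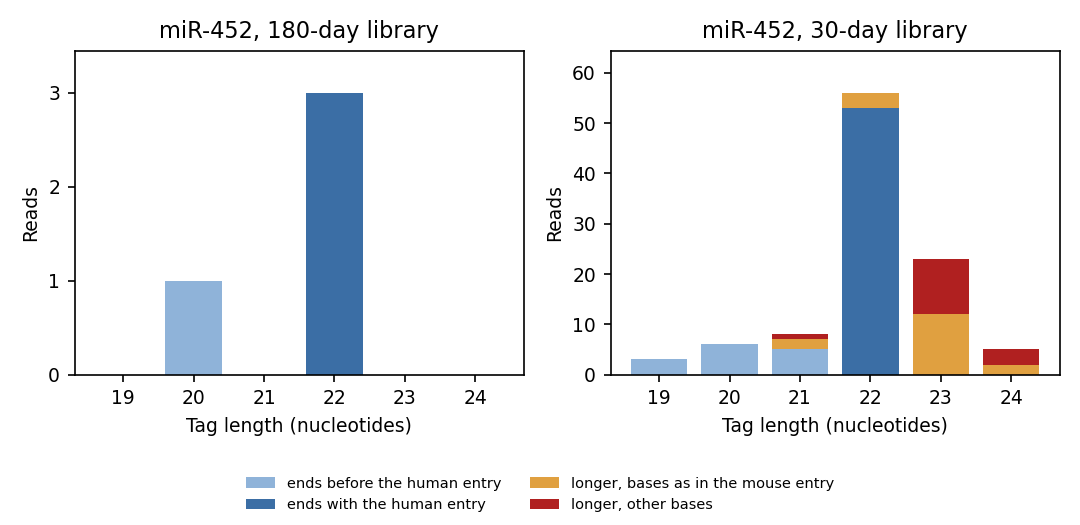
Reads of miR-452 by tag length in nucleotides, for the 180-day library (left, 4 reads) and the 30-day library (right, 101 reads), on separate linear axes. Colours give where the tag ended relative to the human entry; tags of 22 nucleotides held 3 of 4 reads in the 180-day library and 56 of 101 reads in the 30-day library.

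Reads identical to the human entry made up 3 of 4 miR-452 reads in the 180-day library (75.0%, 19.4 to 99.4%) and 49.5% (39.4 to 59.6%) in the 30-day library. Over all miRNA-matched reads, perfect matches to the named entry held 59.4% in the 180-day library and 63.6% in the 30-day library, the second above the upper limit for miR-452 there. Mismatched bases were seen in 9 of the 20 tags of miR-452 in the 30-day library, and these tags held 10 reads, with at most 2 reads each. No tag under another name resembled miR-452 or miR-224, with up to 2 mismatches allowed and 15 or more matching bases net of mismatches.

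The names closest to miR-452 in log2 ratio, among those with 100 or more reads, were miR-411, miR-199* and miR-485, over the 2 libraries. miR-411, of the imprinted DLK1-DIO3 region, had 77.4 RPM in the 180-day library and 223.5 RPM in the 30-day library, a log2 ratio of -1.53. miR-199*, a name without letter for an arm of the mesenchymal miR-199 genes, had 3358 RPM in the 180-day library and 9990 RPM in the 30-day library, a log2 ratio of -1.57. miR-485, also of the DLK1-DIO3 region, had 19.9 RPM in the 180-day library and 54.7 RPM in the 30-day library, a log2 ratio of -1.46. Each of these values lay well inside the interval of miR-452, so the counts do not set them apart from other names with ratios in that interval. Other tested names of miR-199 had log2 ratios from -2.03 for miR-199b to -0.25 for miR-199a-5p. Those of miR-485 had -4.04 for miR-485-3p and -2.69 for miR-485-5p. The likeness therefore belongs to the names given, not to every name of these miRNAs.

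In human, GABRA3, a neighbour of GABRE that encodes another subunit of the GABA-A receptor, hosts miR-105 and miR-767, and the pig annotation places MIR105-1 and MIR105-2 within GABRA3. These miRNAs were too scarce to be tested, and miR-105 is named here after its values were seen. miR-105 had 5 reads in the 180-day library and 3 in the 30-day library. All 5 came from 1 tag with 1 mismatch and 3 unmatched bases. miR-105* had no read in the 180-day library and 4 in the 30-day library, and miR-767 had none in either. Of the 4 miRNAs hosted by these receptor genes, miR-452 alone passed the minimum of 20 reads.

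miRNAs that are X-linked in human were listed without the pair itself. The share of this list called higher was near that over all names tested (29.4% higher, 12.2% lower), and the share called lower was smaller. Of the 45 names of this list that were tested, the calls in the 180-day library were higher for 13, lower for 3 and neither for 29. The list held miR-513 without a letter, so miR-513a is not among the 45. Its ratio was 4.03 (2.54 to 6.24), called higher. The list was drawn up by hand, so other X-linked names, called higher or lower, may be missing from it. The list's median log2 ratio was 0.53, against 0.22 over all names tested. The 3 lower names were miR-221, miR-222 and miR-542-5p. The ratio was 0.281 (0.264 to 0.299) for miR-222 and 0.438 (0.412 to 0.465) for miR-221, which undifferentiated spermatogonia of mouse are known to express, and 0.184 (0.0375 to 0.549) for miR-542-5p. The most read name of the list, miR-509-5p of a testis-expressed cluster, had 12977 RPM in the 180-day library and 5385 RPM in the 30-day library.

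Lists tied to cells in which miR-224 has been studied held calls in both directions, beside 29.4% higher and 12.2% lower over all names tested. Of the 16 tested names linked to undifferentiated male germ cells, 3 were called higher and 3 lower, and the median log2 ratio was 0.11. miR-221 and miR-222 were among the lower ones and also stand in the X-linked list. The most read names of the germ cell list, miR-10b and miR-21, had ratios of 0.948 (0.926 to 0.970) and 0.983 (0.959 to 1.01). Of the 12 tested names linked to granulosa or gonadal steroid-producing cells, 5 were called higher and 1 lower, and the median was 0.83. The lower one was miR-320a, with a ratio of 0.325 (0.313 to 0.338), and for the most read one, the gonadal miR-202-5p, it was 1.70 (1.69 to 1.71). The names miR-202 and miR-202-3p went the other way, with ratios of 0.667 (0.644 to 0.691) and 0.628 (0.597 to 0.660).

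Levels of cell type markers are given here beside that of miR-452. Over all names tested, 29.4% were called higher and 12.2% lower. Most markers had 4 or fewer tested names, too few to set their calls against these shares. The 10 names of miR-34b, miR-34c, miR-449a and miR-449b, which mark meiotic and later male germ cells, summed to 35278 RPM in the 180-day library and 11.4 RPM in the 30-day library, and 8 of 8 tested were called higher. Most of these 8 met the minimum of 20 reads through the 180-day library alone, so that count was largely fixed by the minimum. The gonadal miR-202 names are also in the granulosa list. They summed to 110872 RPM in the 180-day library and 68481 RPM in the 30-day library, with 1 of 4 called higher. These names differed in direction: the ratio was 1.70 for miR-202-5p and 2.39 for miR-202*, but 0.667 for miR-202 and 0.628 for miR-202-3p. Smooth muscle miR-143 and miR-145 summed to 17994 RPM in the 180-day library and 6581 RPM in the 30-day library, with 3 of 4 called higher. Red blood cell miR-451 was at 3774 RPM in the 180-day library and 1535 RPM in the 30-day library, and was called higher. Other names linked to red blood cells went the other way and were not called. Their ratios were 0.697 (0.533 to 0.898) for miR-486-5p, 0.833 (0.553 to 1.21) for miR-144 and 0.868 (0.614 to 1.20) for miR-144*. The markers therefore do not show a common direction for red blood cells. The endothelial miR-126 names summed to 629 RPM in the 180-day library and 381 RPM in the 30-day library, with 0 of 3 called. Their ratios were 1.53 for miR-126, 1.90 for miR-126-5p and 0.681 (0.434 to 1.02) for miR-126-3p. The liver miRNA miR-122 with its star arm summed to 218 RPM in the 180-day library and 21.3 RPM in the 30-day library. miR-122 was called higher, with a ratio of 10.2 (8.22 to 12.7). Of the germ cell names, miR-34b-5p, miR-34b* and miR-449b* had no read in the 30-day library. Their part in the level of miR-452 was not tested.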

How the data were processed

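Per the labels' protocols, RNA of 3 boars was pooled for each library, and a gel cut of 18 to 30 nucleotides was amplified by PCR (15 cycles) for Illumina 1G sequencing. The labels mention no molecular identifiers, so PCR copies cannot be told from separate molecules. The intervals treat each read as a separate count and may be too narrow, also for the call of miR-452. The authors deposited raw read counts of tags, each matched to 1 known miRNA of any species, with an alignment score that was not used. No matching tool, miRBase release or build is given in the sources used here.

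Counts were summed by given name and arm, with species and copy number dropped. Names for 1 arm that differ between species, such as miR-202 and miR-202-3p, stay apart. RPM relate to all miRNA-matched reads of a library. Python 3.11.15 and SciPy 1.17.1 gave exact Poisson, Clopper-Pearson and conditional 95% intervals, tested on simulated data. TMM scaling used edgeR 4.0.16 on names with 20 or more reads. Members and lists were chosen with earlier results of these data known. By rule, all members, up to 3 leading tags of each arm, the 3 closest names and up to 4 most read names of a list could be named. Chosen after their values were seen were miR-542-5p, miR-105, miR-513a, and the tags with later starts or 20 nucleotides. The same holds for the other names of miR-199 and miR-485, and for miR-486-5p, miR-144 and miR-144*.

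Whole-library totals were inferred from tag numbers, which follow falling counts, with missing tags given the count of the next listed one. Other settings tried were perfect matches, tags of 1 read left out, other scalings and other read minimums.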

Additional observations from a re-analysis of the deposited data

How the results depend on the processing

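No paired analysis was possible because each age had 1 library. The ratio of miR-452 stayed below 1 under all 10 alternatives tried, of which the read minimums and the one on miR-224 tags cannot change it by construction. It no longer met the rule with perfect matches only (0.567) or, added after seeing the data, with tags without mismatch (0.407). It met the rule under the others, from 0.0418 with the lowest whole-library totals to 0.372 with tags near the human entry, the latter also added after seeing the data. TMM, median-of-ratios and whole-library scaling shifted every log2 ratio by -0.32, -0.33 and -3.06. Calls over all names moved with the setting: 69 higher and 36 lower with perfect matches, 114 and 81 without tags of 1 read, 27 and 396 with whole-library totals, 77 and 48 with a minimum of 100 reads, and 251 and 57 with a minimum of 1. With TMM 90 were lower and with median of ratios 92. These counts are out of different numbers of names. The names tested were 469 as reported, 297 with perfect matches and 443 without tags of 1 read. They were 327 with a minimum of 100 reads and 1385 with a minimum of 1. Lower names made up 12.2%, 12.1%, 18.3%, 14.7% and 4.12% of these, in that order. Whether the number of names alone moved the counts of higher names was not tested. The share of higher names among those called was 70.8% as reported and 54.1%, 53.5% and 6.38% under the 3 scalings in the order above. The star arm share of miR-452 fell to 0% in the 30-day library with perfect matches, with no mismatch, near the human entry or without tags of 1 read, since it rests on 1 mismatched read. The share with the leading 5′ end was 100% with perfect matches and 98.9% near the human entry. These 2 shares follow from the settings: the 50 perfect reads were those identical to the human entry. Tags near that entry could start at most 2 bases away. The alternative by pig sequences was run for miR-224 only, and removed none of its 6 reads, since the lists hold no pig entry of miR-452. Depth limits miR-224 and miR-452* to statements on the 30-day library, apart from the upper limit of the miR-224 ratio.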
